A study of Mus musculus with 4 samples.

Results

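The interferon-inducible GTPases described here are the guanylate-binding proteins Gbp3, Gbp4, Gbp5 and Gbp7 and the immunity-related GTPases Iigp1, Igtp, Irgm1, Irgm2, Ifi47 and Tgtp1. These 10 genes were chosen by name from the array's gene annotation, with the mean taken where a gene had several probe sets. Among the 10, 6 had a probe set annotated to them alone (Gbp3, Gbp4, Gbp5, Gbp7, Iigp1 and Irgm1), out of 19938 such genes on the array. The other 4 were read only on probe sets shared with another gene: Igtp with Irgm2, Ifi47 with the olfactory receptor gene Olfr56, and Tgtp1 with Tgtp2 on a pair of probe sets. Those signals cannot be given to 1 gene, so they are reported per probe set. They are left out of every count of genes, apart from 1 alternative processing described near the end.

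The study compared macrophages grown from the bone marrow of C57BL/6N mice, in 4 groups of 1 array each. All cells grew in 10 ng/mL M-CSF and were harvested on day 9. Polarisation took 48 h, with interferon-γ at 10 ng/mL for M1 and interleukin-4 (IL-4) at 20 ng/mL for M2. Interleukin-1α (IL-1α), an inflammatory cytokine, was given at 10 ng/mL for 24 h, and the control cells received vehicle. Each phenotype thus has a vehicle and an IL-1α array, and the design asks how M1 and M2 cells differ in their response to IL-1α. With 1 array per group no value has a standard deviation, and a difference between 2 arrays has no test. No macrophages without interferon-γ or IL-4 were analysed here, so a low value in M2 and a high value in M1 cannot be told apart. The labels do not say how many mice or cultures stand behind an array.

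Interferon-γ binds a receptor that signals through JAK kinases, and its target genes are known to carry gamma-activated sequences (GAS) and interferon-stimulated response elements (ISRE) in their promoters. Guanylate-binding proteins and immunity-related GTPases are among the most strongly induced products of that pathway in mouse macrophages. They assemble on the vacuoles of intracellular bacteria and parasites, disrupt those membranes and expose microbial contents to inflammasomes. Among the immunity-related GTPases, Irgm1, Irgm2 and Igtp are regulators that sit on host membranes, whereas Iigp1, Ifi47 and the Tgtp proteins are effectors that load onto pathogen vacuoles.

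The promoter sequences are shown because the members differed together between M1 and M2. RefSeq windows of GRCm38.p6, from 250 bases before to 50 bases after a gene's start, were matched for 8 members (9 windows, since Gbp3 has a pair of starts). No window was available for Gbp4, and Iigp1 was left out of the member counts, so these cover neither gene. Whether Iigp1 holds a match is not reported here, and including it could change the counts. The downstream Gbp3 window held no match. A GAS was searched as TTCNNNGAA, an ISRE-type element as GAAANNGAAA and a κB-type element as GGGANNNNCC, on both strands. Of the 8 members, 5 had a GAS match and 7 an ISRE-type match, where 8.3% and 3.44% of all 32851 windows held one. Matches are letters in these windows and do not show binding. Below, capitals mark the matches, and each stretch is given 5′ to 3′ on the strand of its gene. Gbp5 had the largest IL-1α difference in M2 of the members with their own probe set. Its vehicle signal there was not shown to be above background. The Gbp5 window (chr3:142496684-142496983, plus strand) is printed whole for that difference. The others are cut to the matches with 20 flanking bases: Gbp7 at chr3:142530210-142530312 and Gbp3 at chr3:142559979-142560034 on the plus strand, Irgm1 at chr11:48871415-48871470 and Tgtp1 at chr11:48992294-48992354 on the minus strand, and Igtp at chr11:58199491-58199551 and Irgm2 at chr11:58214882-58214942 on the plus strand.
Gbp5: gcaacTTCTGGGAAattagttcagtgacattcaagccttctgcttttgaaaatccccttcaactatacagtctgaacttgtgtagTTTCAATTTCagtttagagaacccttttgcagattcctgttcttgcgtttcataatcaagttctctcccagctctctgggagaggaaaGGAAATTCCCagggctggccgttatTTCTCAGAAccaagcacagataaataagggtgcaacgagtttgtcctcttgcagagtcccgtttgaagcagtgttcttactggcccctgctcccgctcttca
Gbp7: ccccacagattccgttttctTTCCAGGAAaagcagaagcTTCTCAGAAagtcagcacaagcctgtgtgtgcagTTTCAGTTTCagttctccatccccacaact
Gbp3: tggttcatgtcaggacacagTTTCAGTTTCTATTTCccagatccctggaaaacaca
Irgm1: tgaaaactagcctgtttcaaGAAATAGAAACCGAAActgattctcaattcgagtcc
Tgtp1: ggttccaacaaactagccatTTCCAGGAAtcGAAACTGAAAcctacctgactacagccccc
Igtp: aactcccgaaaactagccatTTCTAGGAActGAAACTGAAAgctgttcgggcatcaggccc
Irgm2: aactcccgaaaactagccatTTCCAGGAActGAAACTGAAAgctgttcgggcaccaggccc

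The immunity-related GTPase promoters of Tgtp1, Igtp and Irgm2 shared 1 layout, a GAS match followed by an ISRE-type match that began 11 bases after it. The spacing was looked for after these sequences had been seen. Of the 32851 windows 5 held it (0.0152%), and all 5 belonged to immunity-related GTPase genes of chromosome 11: Gm12185, Igtp, Irgm2, Tgtp1 and Tgtp2. The spacing was taken from Tgtp1, Igtp and Irgm2 themselves. Genes of 1 family are not independent occurrences, so the share is a description only. Gbp3 and Irgm1 had no GAS match but a pair of overlapping ISRE-type matches 6 bases apart, which 0.116% of windows held. Gbp5 and Gbp7 each had 2 GAS matches and 1 ISRE-type match, with a GAS match 52 bases before the start in Gbp5 and 87 bases before it in Gbp7. Gbp5 was also the only one of the 8 members with a κB-type match, 77 bases before its start, and 20.7% of all windows held such a match. The Ifi47 window held none of these letters.

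Every guanylate-binding protein with its own probe set read far lower in M2 than in M1. Levels are RMA log2 signals, which are set side by side only within a gene, and differences are in log2 units. A floor of 7.617, which is the all-gene median, marks signals not shown to be above background. Gbp4 read 13.33 in M1 vehicle and 13.47 in M1 IL-1α, against 5.86 in M2 vehicle and 6.02 in M2 IL-1α. Both M1 arrays were high, and both M2 arrays lay under the floor. The vehicle difference was -7.47, a 177-fold higher signal in M1, and Gbp4 was second lowest in M2 among 10489 genes. With the floor in place of the M2 signal it was 52.5-fold. Gbp4 also shares a probe set with Gbp6, Gbp8, Gbp9, Gbp10 and Gbp11 that differed by -5.77, and averaging it in gave -6.62 for Gbp4.

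Gbp5, which promotes assembly of the NLRP3 inflammasome, read 12.47 in M1 vehicle, 12.56 in M1 IL-1α, 5.73 in M2 vehicle and 7.82 in M2 IL-1α. It was high on both M1 arrays, and of the M2 arrays only that with IL-1α reached the floor. The vehicle difference was -6.74 (107-fold), or 28.9-fold against the floor. Gbp3 and Gbp7, neighbours of Gbp5 on chromosome 3, differed less. Gbp3 read 12.31 and 12.40 in M1 (vehicle, then IL-1α) and 8.18 and 8.57 in M2, a vehicle difference of -4.12 (17.4-fold). Gbp7 read 13.05 and 13.02 in M1 and 8.99 and 9.33 in M2, a vehicle difference of -4.06 (16.6-fold). Both genes stayed above the floor on all 4 arrays. Their M2 signals were below the 75th percentile of all genes (9.635), so a part of background in them is not excluded.

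The immunity-related GTPases followed the same order of phenotypes. The effector Iigp1 read 12.24 in M1 vehicle, 12.11 in M1 IL-1α, 5.53 in M2 vehicle and 5.89 in M2 IL-1α. Its M2 signals were under the floor, and its vehicle difference of -6.71 (104-fold) became 24.6-fold against the floor. Irgm1, a regulator needed for resistance to several intracellular bacteria, read 12.76 and 12.83 in M1 and 9.82 and 10.06 in M2. Its vehicle difference of -2.93 (7.63-fold) was the smallest of the 6, and its M2 signals were above the floor. In all 6 genes both M2 arrays read below both M1 arrays, as they did in 38.3% of the 10625 genes at the floor, so this alone does not set the 6 apart.

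The shared probe sets behaved alike. That of Igtp and Irgm2 read 13.10 and 13.05 in M1 (vehicle, then IL-1α) and 8.80 and 8.99 in M2, a vehicle difference of -4.30 (19.7-fold). Both probe sets of Tgtp1 and Tgtp2 read 13.34 to 13.43 in M1 and 7.27 to 7.79 in M2, with vehicle differences of -6.09 and -5.99. Their M2 vehicle signals were under the floor, and against the floor the folds were 53.6 and 55.2. The probe set of Ifi47 and Olfr56 read 11.61 and 11.64 in M1 and 7.86 and 8.33 in M2, a vehicle difference of -3.75 (13.5-fold). The gene behind each of these signals is not known.

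**Figure D1:**
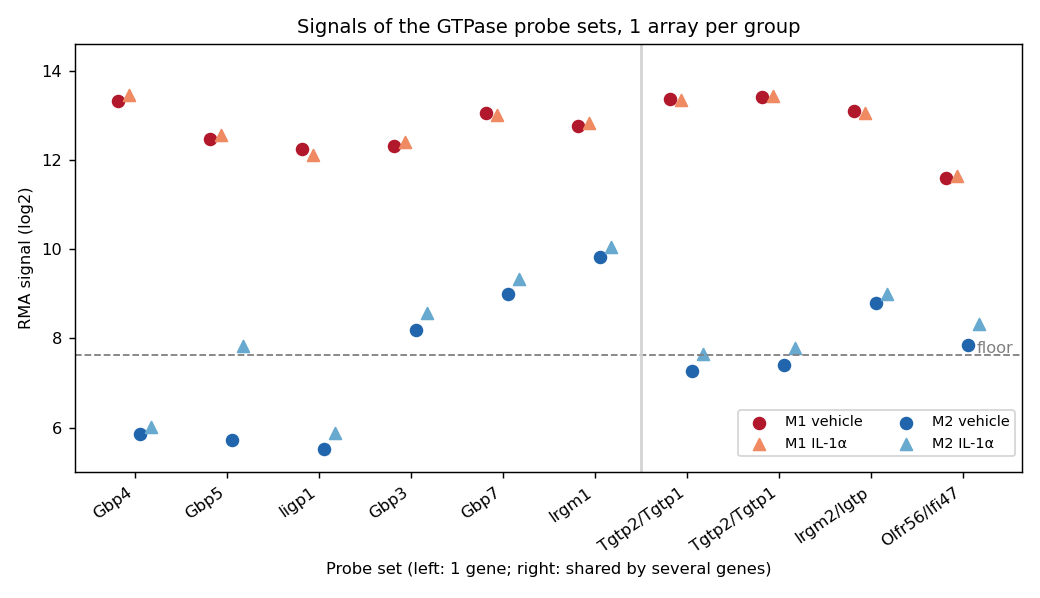
RMA log2 signal of each GTPase probe set (y axis) on the 4 arrays, with probe sets of 1 gene on the left and shared ones on the right; circles are vehicle, triangles IL-1α, red M1 and blue M2, and the dashed line is the floor of 7.617. All M1 points lie between 11.61 and 13.47, above every M2 point, and Gbp5 is the gene whose M2 points lie farthest apart.

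All 6 genes with their own probe set were at least 2-fold lower in M2 under vehicle, where 6.83% of 10489 genes were. Gbp4, Gbp5 and Iigp1 passed the floor only through M1 and so had to be lower, which leaves Gbp3, Gbp7 and Irgm1 as genes measured on both sides. The median over the 6 was -5.42, against 0.01 over all genes tested. With IL-1α on both sides the median was -4.29, and all 6 were again at least 2-fold lower (6.06% of 10479 genes): Gbp4 by -7.45, Iigp1 by -6.22, Gbp5 by -4.74, Gbp3 by -3.84, Gbp7 by -3.68 and Irgm1 by -2.77. In limma's additive model of phenotype and treatment over all 4 arrays, adjusted over 10625 genes by Benjamini-Hochberg, all 6 were lower in M2, as were 29.3% of all genes. The limma effects ran from -7.46 ± 0.08 (SE) for Gbp4, adjusted p = 7.45e-14, to -2.85 ± 0.06 for Irgm1, adjusted p = 8e-12. Gbp5 had the largest error, -5.74 ± 0.31 (limma adjusted p = 1.57e-08). This model leaves 1 residual degree of freedom per gene, to which limma adds 10.05 prior degrees of freedom drawn from all genes. It sets each effect against how far the 4 arrays depart from additivity, which holds no variation among cultures or mice.

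The labelled cell type and polarisation were visible on the arrays. All 8 macrophage markers, among them Csf1r, Adgre1 and Spi1, were above the floor on all 4 arrays. Of 4 M1 markers, 3 were past 2-fold higher in M1, with Nos2 and Cxcl9 at -6.21 and -7.44 for M2 minus M1, whereas Ciita differed by -0.13. All 4 M2 markers were past 2-fold higher in M2, with Arg1 at 5.72 and Retnla at 7.75. None of the 12 measured T, B and NK cell markers reached the floor on any array, and neither did Ifng (7.01 to 7.29), the gene of the cytokine given to the M1 cells. Of 8 stromal and endothelial markers, 5 reached the floor on at least 1 array and 4 on all 4 arrays. limma called 1 of the 5 lower in M2 and 1 higher, and Kdr differed by -1.33 under vehicle. The summed dendritic and neutrophil markers moved with the phenotype. Of 6 dendritic markers, 4 reached the floor on at least 1 array, and of these Clec9a, Xcr1 and Ccr7 were under it in M2. The linear signals of all 6 summed to 2371 and 2017 in M1 and 803 and 790 in M2. limma called 3 of the 4 at the floor lower in M2 (29.3% of all genes) and Zbtb46 higher (0.48 under vehicle). Of 8 neutrophil markers 5 reached the floor, and Ly6g was under it throughout. The sums over all 8 were 964 and 1005 in M1 and 2269 and 2142 in M2. The part of these cells in the GTPase differences was not tested, and in bulk RNA fewer expressing cells and less RNA per cell cannot be told apart.

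The GTPase genes lie in clusters, and on chromosome 3 the flanking genes measured above the floor did not share the difference. In RefSeq order (GRCm38.p6), Pdlim5 precedes and Kyat3 and Gtf2b follow the block of Gbp5, Gbp7, Gbp3, Gbp2b and Gbp2. The vehicle difference was 0.25 for Pdlim5 and 0.28 for Gtf2b, against -4.06 to -6.74 for the 4 guanylate-binding genes of that block with a probe set of their own. Kyat3 gave 0.16, but both of its vehicle signals (7.26 in M1 and 7.42 in M2) were under the floor. On chromosome 5, Abcg3 next to Gbp8 differed by -0.06. At the other end of that block, the adjacent volume-regulated channel genes Lrrc8b and Lrrc8c differed in opposite directions, by 1.26 and -1.96. On chromosome 11, the flanking genes Trim41, Gemin5, Mrpl22 and Zfp692 lay between -0.31 and 0.31, whereas Irgm1, Gm12185 and Gm12250 in the same blocks lay between -2.93 and -4.22.

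**Figure D2:**
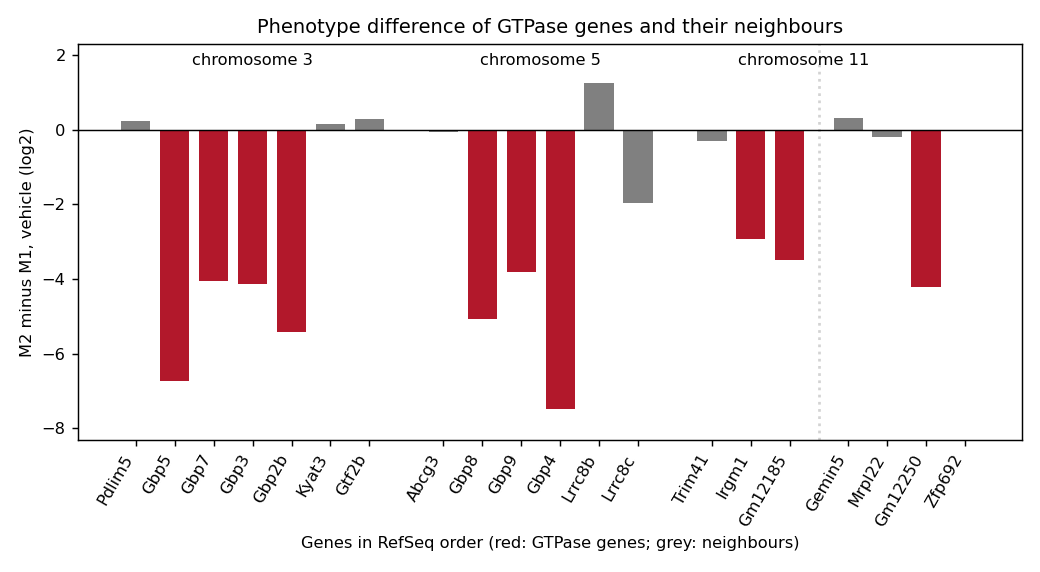
M2 minus M1 under vehicle in log2 units (y axis) for GTPase genes (red) and the nearest protein-coding genes (grey) in RefSeq order on chromosomes 3, 5 and 11, for genes with their own probe set that reached the floor, 1 array per group; the dotted line parts separate blocks. Red bars run from -2.93 to -7.47, and apart from Lrrc8b and Lrrc8c the grey bars lie within 0.31 of 0. Kyat3 reached the floor only in M2 with IL-1α, so both signals behind its bar are under it.

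The remaining interferon-inducible GTPases with a probe set of their own were lower in M2 too. All 10 of them were at least 2-fold lower under vehicle (6.83% of all genes tested), with a median of -4.56, and limma called all 10 lower (29.3% of all genes). Of the 10, 6 lay under the floor on both M2 arrays and passed it only through M1, so they had to be lower. That leaves 4 measured on both sides, Gbp9, Gm4951, Gm12250 and Mx1, at -3.80 to -4.91. Gbp2b, Gbp11 and Gbp8, under the floor in M2, differed by -5.41, -5.13 and -5.07. Of the immunity-related GTPases, Gm12250, which encodes the inflammasome-linked Irgb10, differed by -4.22, Gm4951 by -3.91, and Gm12185 and Gm4841, both under the floor in M2, by -3.48 and -2.82. The dynamin-like antiviral GTPases Mx1 and Mx2 differed by -4.91 and -5.24, with Mx2 under the floor in M2. A probe set shared by Gbp2 and Gbp2b read 13.77 and 13.72 in M1 and 10.56 and 11.43 in M2. Dynamins, atlastins and other relatives not known for interferon induction were measured for contrast: of 6 with a probe set of their own, 4 reached the floor in this comparison, none was past 2-fold, and Dnm1l (-0.42), Dnm2 (-0.30), Atl3 (0.17) and Irgq (0.16) had a median of -0.07 (limma 2 lower, 1 higher).

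With IL-1α the family read close to its vehicle level in M1. The differences, M1 IL-1α minus M1 vehicle, were 0.14 for Gbp4, 0.09 for both Gbp3 and Gbp5, 0.07 for Irgm1, -0.03 for Gbp7 and -0.13 for Iigp1. None of the 6 was past 2-fold, as was no gene (0%) of the 10012 tested, and over those genes the differences spread with a standard deviation of 0.11. The 4 shared probe sets of Igtp, Irgm2, Ifi47 and Tgtp1 lay between -0.05 and 0.03, and that of Gbp4 with 5 other genes at 0.05.

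In M2 with the same treatment, Gbp5 read several-fold above its vehicle level and the other members within a 1.5-fold difference of theirs. Gbp5 was higher by 2.09 with IL-1α, a 4.25-fold signal, and ranked 7 among 10284 genes, of which 0.35% were at least 2-fold higher. Its M2 vehicle signal was under the floor and its IL-1α signal only 0.20 above it, so against the floor the difference was 1.15-fold and its size is uncertain. With a floor at the 75th percentile of all genes (9.635), Gbp5 was below it on both M2 arrays and was not called. The other 5 genes differed by 0.38 (Gbp3), 0.36 (Iigp1), 0.34 (Gbp7), 0.23 (Irgm1) and 0.16 (Gbp4), and for Iigp1 and Gbp4 both M2 signals were under the floor. All 6 differences were above 0, as were 69.3% of those of all genes, which had a median of 0.05. By rank among the 10284 genes, Gbp3 was 257, Gbp7 340 and Irgm1 942. The shared probe sets gave 0.19 for Igtp and Irgm2, 0.38 and 0.39 for Tgtp1 and Tgtp2, and 0.48 for Ifi47 and Olfr56, and that of Gbp4 with 5 other genes 0.28 under the floor. For Tgtp1 and Tgtp2 the vehicle signals were under the floor, against which the differences were 0.03 and 0.18.

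Set against the gap between M1 and M2, these differences were small. The IL-1α difference in M2 amounted to 31% of the vehicle gap for Gbp5, 9.28% for Gbp3, 8.39% for Gbp7, 7.88% for Irgm1, 5.34% for Iigp1 and 2.08% for Gbp4, all on the log2 scale. With signals under the floor set to it, the share was 4.18% for Gbp5, below those of Gbp3, Gbp7 and Irgm1, and none was left for Gbp4 and Iigp1. The order of Gbp5 among the members thus rests on a baseline under the floor. Gbp5 in M2 with IL-1α still read 26.7-fold under its level in M1 with IL-1α. Among the other family genes, Gm12250 was higher by 0.62 and Mx1 by 0.58. Mx2 gave 0.61 with both M2 signals under the floor. The probe set of Gbp2 and Gbp2b was higher by 0.87, whereas that of Gbp2b alone gave 0.07, under the floor on both M2 arrays. Gbp11 and Gm4841, under the floor on both M2 arrays, gave -0.43 and -0.40.

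**Figure D3:**
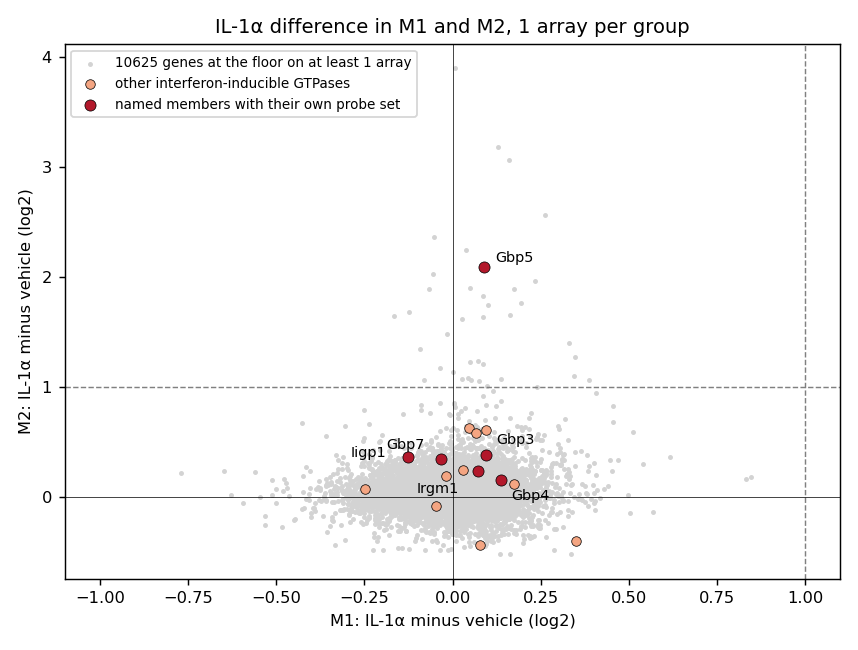
IL-1α minus vehicle in M2 (y axis) against M1 (x axis), both in log2 units, for 10625 genes at the floor on at least 1 array (grey), the 6 named GTPase genes with their own probe set (red) and the other inducible GTPases (orange), 1 array per group; dashed lines mark 2-fold. Gbp5 stands at 2.09 in M2 and 0.09 in M1, and the other 5 named genes lie below 0.39 on both axes.

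Subtracting the M1 response from the M2 response gave 2.0 for Gbp5, where 0.32% of 10625 genes were past 1. With signals under the floor set to it, the Gbp5 value was 0.11. The value was 0.48 for Iigp1, 0.37 for Gbp7, 0.29 for Gbp3, 0.16 for Irgm1 and 0.02 for Gbp4, of which Iigp1 and Gbp4 were under the floor on both M2 arrays, with a median of 0.33 over the 6 and of 0.06 over all genes. The 4 arrays leave no degree of freedom to test it. For an effect of IL-1α shared by M1 and M2, limma called none of the 6 and 0% of all genes at an adjusted p under 0.05. Without adjustment, 646 of the 10625 genes had a limma p under 0.05, among them 3 of the 6 (Gbp5, Gbp3 and Irgm1). These unadjusted values are not read as calls. The effect of Gbp5 was 1.09 ± 0.31 (SE), limma adjusted p = 0.519.

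The members differed among themselves in how far apart their M1 and M2 signals lay. Profiles over the 4 arrays were centred on each gene's mean and compared by Euclidean distance. Of the 15 pairs, Gbp3 and Gbp7 were closest (0.15), and Gbp4 and Irgm1 farthest apart (4.61). The genes nearest to the mean profile of the 6 were the integrin gene Itgal (0.08), Mx2 (0.09), the transporter Slco3a1 (0.23), Ms4a6b (0.35), the oligoadenylate synthetase-like Oasl1 (0.35), Mx1 (0.41), the interferon regulatory factor Irf7 (0.45), Gbp2b (0.46), Ifi206 (0.47) and the chemokine Cxcl11 (0.47), out of 10120 candidates. The members themselves lay farther from this mean, from 1.09 (Gbp3) to 2.42 (Gbp4), so nearness to it is not likeness to a member. Itgal, Mx2, Oasl1, Gbp2b, Ifi206 and Cxcl11 were under the floor in M2 vehicle. Nearest to Gbp5 were Ifi205 (0.28), the chemokine Cxcl10 (0.41), the prostaglandin synthase Ptgs2 (0.56), Ifit3 (0.69) and Ifit1 (0.76). With IL-1α in M2 these 5 were higher by 1.90, 1.64, 2.25, 1.21 and 1.14, and with vehicle all 5 were under the floor there. They were picked for likeness to Gbp5 on the same 4 arrays, so these differences follow from the choice and are a description only.

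Components of interferon-γ signalling were lower in M2 in part. Under vehicle, M2 was past 2-fold lower in 9 of the 16 genes at the floor (6.83% of all genes tested) and past it upward in none (median -1.27). limma called 12 lower, where it called 29.3% of all genes lower, and 1 higher. The receptor chains and their kinases, named here for their role after their values were seen, differed by 0.58 (Ifngr1), -0.01 (Ifngr2), -0.05 (Jak1) and -0.40 (Jak2). Among the transcription factors, Batf2 differed by -3.22, Stat2 by -2.71, Irf1 by -1.93 and Irf8 by -1.37. The transactivator of MHC class I genes Nlrc5 differed by -2.94, and the feedback inhibitors Socs3 and Socs1 by -2.08 and -1.73. With IL-1α none of the 16 was past 2-fold in M2 (median 0.10), and Socs3 (0.78), Stat2 (0.34) and Irf1 (0.26) were the highest. Socs3 read 7.39 in M2 vehicle, under the floor, which limits both of its differences.

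Genes that place or use the GTPases were divided. Inflammasome partners had 8 of 12 at least 2-fold lower in M2 under vehicle, where 6.83% of all genes tested were. Their median was -1.34, and limma called 10 lower (29.3% of all genes) and 1 higher. Il1b was at -4.89, the nucleic acid sensor Zbp1 at -3.61, Nlrp3 at -2.72 and the lipopolysaccharide sensor Casp4 at -2.31. With IL-1α in M2 only Il1b of the 12 was past 2-fold (2.56), as were 0.35% of all genes tested, followed by Nlrp3 (1.00, just short of it) and Casp4 (0.83). Il1b and Nlrp3 were under the floor in M2 vehicle, and against the floor their differences were 1.79 and 0.89. The conjugation machinery of LC3-like proteins and ubiquitin, which guides these GTPases to vacuoles, had 1 of 15 lower under vehicle, near the 6.83% of all genes. That gene was the ubiquitin ligase Trim21 (-2.33). The median of the list was 0.02, and limma called 6 lower (29.3% of all genes) and 6 higher. Gabarapl1 gave 0.86 and Atg5 -0.68. Of the 6 enzymes for prenylation, the lipid modification that anchors some guanylate-binding proteins, none was past 2-fold under vehicle (median -0.09; limma 2 lower, 1 higher), and Fntb (0.85) and Pggt1b (-0.51) were the farthest from 0.

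**Figure D4:**
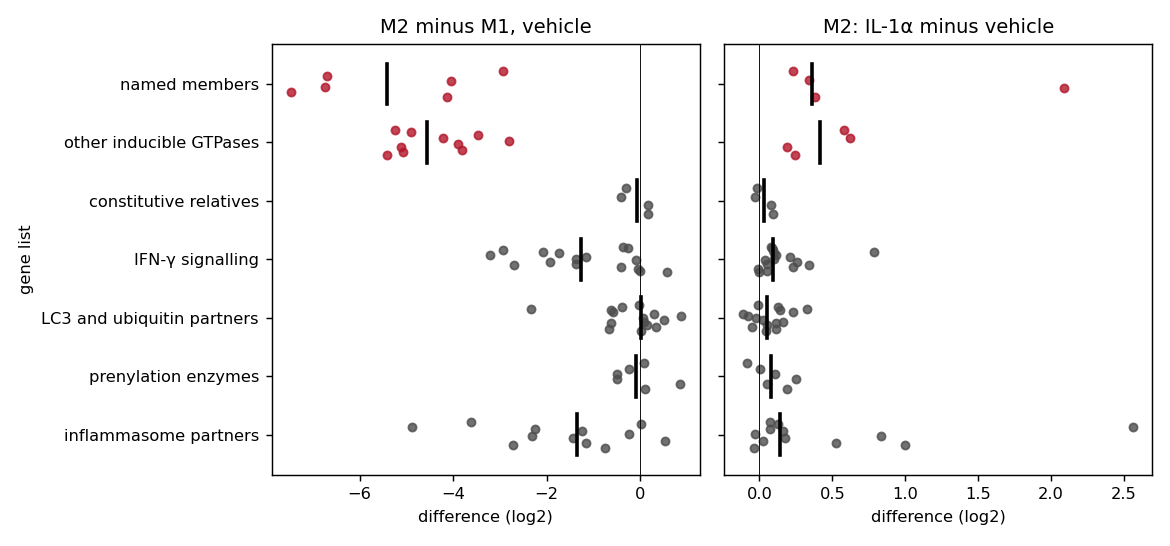
Differences in log2 units (x axes) of the genes at the floor in each list (rows), M2 minus M1 under vehicle on the left and IL-1α minus vehicle in M2 on the right; each point is a gene, red for inducible GTPases, and black bars are list medians, with 1 array per group. On the left the GTPase medians are -5.42 and -4.56 and that of interferon-γ signalling is -1.27. On the right Gbp5 (2.09) and Il1b (2.56) stand apart from their lists, both from M2 vehicle signals under the floor.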

How the data were processed

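Total RNA of 4 macrophage samples, 1 per group, was amplified, labelled with biotin and hybridised to a single-colour Affymetrix mouse gene array. The authors deposited a log2 signal for each probe set. The submitters' processing notes name RMA and Affymetrix Expression Console; their versions, settings, genome build and log base are not given in the sources used here. The values ran from 3.09 to 14.47 with near-equal array medians, the log2 scale of RMA. RMA generally brings arrays to a common distribution, which hides global differences in RNA content and shrinks differences between dim signals. The number of arrays limits the precision, and no scanner files or detection calls were used.

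Of 35556 probe sets, 21789 had 1 gene in GEO's platform annotation, 1621 several and 12146 none; symbols were updated through RefSeq. A gene was called at 2-fold where at least 1 array compared reached the floor of 7.617. R 4.3.3 with limma 3.58.1 (lmFit, eBayes with a trend) gave the additive fit, with 10.05 prior degrees of freedom, checked on simulated data. The labels name no separate cultures or mice. The p-values set each effect against departure from additivity, moderated by a prior drawn from all genes, and measure no spread within a group. Members, gene lists and tests were chosen with earlier results of these data known. Named were all members, all other inducible GTPases with their own probe set, up to 6 genes per other list by size of the difference under vehicle or with IL-1α in M2, the 10 genes nearest to the mean member profile and the 5 nearest to the member with the largest IL-1α difference in M2; the flanking genes were added after seeing the data. Near-identical family members can cross-hybridise, so values within the family are uncertain by member. The alternatives tried were a threshold of 1.5-fold, a floor at the 75th percentile (9.635) or none, loess centring, quantile normalisation once more, the brightest of a gene's probe sets, averaging in shared probe sets, and eBayes without a trend. Setting signals under the floor to the floor was added after seeing the data.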

Additional observations from a re-analysis of the deposited data

Results flagged for a closer look

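The IL-1α difference ran in opposite directions on the M1 and M2 pairs for Iigp1 (-0.13 in M1, 0.36 in M2) and Gbp7 (-0.03 in M1, 0.34 in M2). The difference of responses was 0.484 for Iigp1 and 0.374 for Gbp7, and it was not tested, since each group has 1 array. The M1 difference of Gbp7 was 0.008 after a further quantile normalisation, so its sign there changed. Both M2 signals of Iigp1 were under the floor.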

How the results depend on the processing

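All 6 members with their own probe set kept their direction and their side of 2-fold between M1 and M2 under each alternative run. With shared probe sets averaged in, 4 more members had a value, with Igtp and Irgm2 read from the same probe set. All 10 were then past 2-fold lower in M2, where 720 of 10492 genes were with vehicle and 639 of 10482 with IL-1α. limma called 10 for phenotype, and in the main run it called 29.3% of all genes lower. With the floor at 9.635, 0 members instead of 1 were past 2-fold for IL-1α in M2, because neither M2 signal of Gbp5 reached that floor. With signals under the floor set to it, an alternative chosen after seeing the data, 0 members instead of 1 were past 2-fold for IL-1α in M2 and 0 instead of 1 for the difference of responses; Gbp5 gave 0.20 and 0.11. Over the other alternatives the Gbp5 difference in M2 ran from 2.05 to 2.09, the vehicle difference of Gbp4 from -7.50 to -6.62, and its difference of responses from -0.01 to 0.12. Another scaling moved the median of all genes by under 0.1 in each comparison. Over all genes, a 1.5-fold threshold gave 1400 rather than 716 lower in M2 under vehicle, 1197 rather than 635 with IL-1α, 90 rather than 36 higher with IL-1α in M2 and 108 rather than 34 for the difference of responses, and the floor at 9.635 gave 19 for IL-1α in M2. For the IL-1α effect, limma called 0 of the 6 under each alternative except signals set to the floor, for which it was not run. Socs3 was past 2-fold in M2 with IL-1α (1.4) when its brightest probe set was used. The mean of its probe sets was under the floor in M2 vehicle. No paired analysis was possible because each group has 1 array and the labels give no replicate numbers. Signals under the floor limit the sizes in M2 for Gbp4, Gbp5, Iigp1 and the Tgtp1 and Tgtp2 probe sets.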

Other observations

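The very large inducible GTPases, read only on probe sets shared by Gvin1 and related genes, differed less by phenotype than the members. Under vehicle the probe set of Gm4070 and Gvin1 read 12.89 in M1 and 11.82 in M2, a difference of -1.07. The other two probe sets, shared by 5 genes, differed by -0.70 and -0.74. With IL-1α these 3 probe sets lay between -0.07 and -0.03 in M2. The pair of probe sets shared by 9930111J21Rik1 and 9930111J21Rik2, which lie beside Tgtp1 and Tgtp2 on chromosome 11, differed by -1.44 and -1.46 under vehicle and by -0.14 with IL-1α in M2.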
